A study of Mus musculus with 42 samples.

Results

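Medullary thymic epithelial cells (mTEC) sorted for high MHC class II were compared with mTEC sorted for low MHC class II, both from mice labelled Control. The members were chosen by their labels, genotype Control and the 2 sort gates (Epcam+CD45-UEA+Ly51loMHCIIhi and Epcam+CD45-UEA+Ly51loMHCIIlo), and by total count. The level of no single gene entered that rule, though it was set with earlier results of these data known. Of the 42 libraries in the series, 8 entered, 4 in each gate, after 1 library of each gate with under 100000 counts was left out (replicate 2 in both, with 41828 counts in MHCII-high and 82 in MHCII-low). In both gates the cells are epithelial (Epcam+), lack the blood cell marker CD45, bind the lectin UEA and are low for the cortical marker Ly51. Each library was made from 200 sorted cells, and the 8 libraries held 3416133 to 5258502 counts. The series asks what a deletion of Ski, a corepressor of TGF-beta signalling, does in thymic epithelium. The other genotypes are KO (7 libraries in each gate) and Ski flox Control (2 in each gate), and they are used below only to see whether the contrast between the gates recurs. The labels give no Cre driver, alleles, age or sex, do not say what the Control animals carry, and tie no library to an animal. The replicate spread behind each p-value is therefore that of libraries, not of animals, and some of it may be technical.

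Medullary epithelium teaches developing T cells to tolerate the body's own proteins. Young mTEC carry little MHC class II. On RANK and CD40 signals, which run through NF-kappaB, they mature into cells with high MHC class II that express AIRE, a transcriptional regulator that switches on a large set of tissue-restricted genes for display to T cells. After the AIRE stage many mTEC lower MHC class II again and take on the look of peripheral cell types, among them cornified keratinocytes and tuft cells, chemosensory cells that use the taste G protein gustducin. An MHCII-low gate can thus hold both cells before the AIRE stage and cells after it. Which of them these libraries held was not tested.

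Stretches of 3 promoters are shown because each gene was without overlap between the gates and stands for a gene group described below: Nfkbia, the NF-kappaB inhibitor that NF-kappaB itself induces, H2-Eb2, an MHC class II beta chain gene, and Isg15, an interferon-stimulated gene. Each is the 250 bases before the gene's start, 5′ to 3′ on the gene's strand, from RefSeq (GRCm38.p6). Nfkbia lies at chr12:55492648-55492897, minus strand, H2-Eb2 at chr17:34325425-34325674, plus strand, and Isg15 at chr4:156200819-156201068, minus strand. Capitals mark GGGANTTTC, a core of the NF-kappaB motif, in Nfkbia, CCAAT in H2-Eb2 and GAAANNGAA, a core of the interferon-stimulated response element, in Isg15, on either strand.
Nfkbia: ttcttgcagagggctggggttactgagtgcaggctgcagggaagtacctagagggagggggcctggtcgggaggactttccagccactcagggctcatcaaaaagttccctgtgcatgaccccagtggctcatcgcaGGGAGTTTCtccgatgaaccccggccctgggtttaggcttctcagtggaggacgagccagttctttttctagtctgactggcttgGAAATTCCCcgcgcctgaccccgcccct
H2-Eb2: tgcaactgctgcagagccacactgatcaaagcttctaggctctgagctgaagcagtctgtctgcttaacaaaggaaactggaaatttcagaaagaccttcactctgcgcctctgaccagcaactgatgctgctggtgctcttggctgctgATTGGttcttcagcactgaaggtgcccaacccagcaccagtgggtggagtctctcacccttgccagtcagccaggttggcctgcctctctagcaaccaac
Isg15: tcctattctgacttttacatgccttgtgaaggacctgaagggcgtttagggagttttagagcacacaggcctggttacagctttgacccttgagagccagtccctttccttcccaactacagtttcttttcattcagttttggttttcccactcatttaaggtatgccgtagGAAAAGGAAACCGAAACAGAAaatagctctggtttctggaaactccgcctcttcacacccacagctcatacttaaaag
The Nfkbia stretch held 2 matches, and the 3 matches in Isg15 form a chain in which only neighbours overlap. In the H2-Eb2 stretch the single match lies on the opposite strand. Of 18 interferon-stimulated genes on the list with an entry, 11 held GAAANNGAA (61.1%), beside 8.18% of all 27025 genes in the table, a gene being counted when any of its promoters holds the letters. Only Nfkbia and Nfkb2 of 19 NF-kappaB signalling genes with an entry held GGGANTTTC (10.5%), beside 1.11% of all genes. CCAAT stood in 10 of 10 MHC class II presentation genes with an entry, beside 37.5% of all genes. A match is a run of letters and was not tested as a binding site.

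Across all genes, no single gene separated the gates under the main test. Of 23040 genes tested with edgeR's quasi-likelihood test, 0 passed an adjusted p of 0.05 (0%), and the smallest adjusted p was 0.661. At an unadjusted p under 0.05 there were 1720, of which 1180 were higher in MHCII-high (5.12% of genes tested) and 540 lower (2.34%). limma voom called 79 genes (66 higher, 0.286%, and 13 lower, 0.0564%) and DESeq2 called 201 (139 higher, 0.603%, and 62 lower, 0.269%). A gene is said below to be higher or lower without overlap when all 4 libraries of one gate lie beyond all 4 of the other. By this rule 591 genes were higher in MHCII-high (2.57%) and 318 were lower (1.38%). Were the 8 libraries interchangeable, a gene without ties would separate in this way with probability 0.0286, split evenly between the directions. The lower share is near its part of that split, and the higher share lies above it. Over all genes tested 51.4% had a positive log2 fold change and the median was 0.04, and lists of genes are read against these figures. Of the 591, 503 were protein coding and 64 had no count in MHCII-low, and of the 318 these were 261 and 21 (no count in MHCII-high). Levels are CPM, the count of a gene scaled to library size with TMM factors, always given in the order replicates 1, 3, 4 and 5. Log2 fold changes are MHCII-high minus MHCII-low, with the standard error (SE) of the edgeR fit. Unless a call is named, no gene below passed edgeR's adjusted threshold in these 8 libraries.

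Aire, the regulator that defines the mature mTEC stage, stood at 633, 784, 462 and 442 CPM in MHCII-high and at 40, 207, 4.06 and 4.7 CPM in MHCII-low. Every MHCII-high library lay above every MHCII-low library, and MHCII-low replicate 3 came nearest. On log2(CPM + 1) the means were 9.14 ± 0.39 (SD, n = 4) and 4.48 ± 2.56 (SD, n = 4), a difference of 4.67 (two-sided exact permutation p = 0.0286, the smallest that 4 against 4 allows; 0.0429 adjusted over the 3 marker genes). Nfkbia, which encodes IkappaB-alpha, the inhibitor that holds NF-kappaB in the cytoplasm, stood at 2424, 2312, 2730 and 1969 CPM in MHCII-high and at 1286, 1476, 1200 and 1351 CPM in MHCII-low. Here too the gates did not overlap, and the spread within each gate was narrow. The difference was 0.82 on log2(CPM + 1) (exact permutation p = 0.0286, adjusted 0.0429), from 11.19 ± 0.19 against 10.37 ± 0.13 (SD, n = 4 each). Gnat3, the alpha subunit of gustducin in tuft cells, stood at 62.7, 169, 1355 and 516 CPM in MHCII-high and at 2286, 145, 2560 and 1689 CPM in MHCII-low. MHCII-low replicate 3 fell among the MHCII-high libraries, so the gates overlapped. The difference was -1.89 on log2(CPM + 1) (exact permutation p = 0.2, adjusted 0.2). In the edgeR fit the log2 fold changes were 3.18 (SE 1.43) for Aire, 0.83 (SE 0.31) for Nfkbia and -1.67 (SE 1.70) for Gnat3. None passed the threshold over all genes tested, with an edgeR adjusted p of 0.661 for Aire. Any gene without overlap reaches the exact permutation p of 0.0286. The 3 markers were chosen with earlier results of these data known. Fewer cells of a type and less RNA per cell cannot be told apart in such bulk libraries, for Gnat3 or for any other gene.

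**Figure D1:**
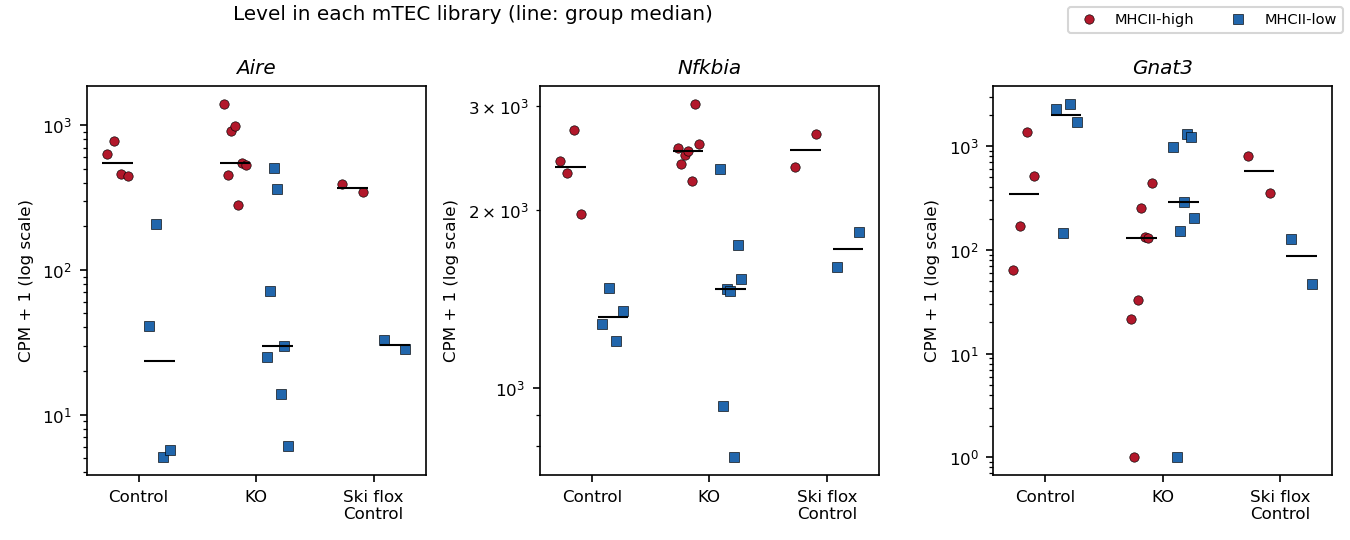
Level of Aire, Nfkbia and Gnat3 in each MHCII-high (circles) and MHCII-low (squares) library of the 3 genotypes, as CPM + 1 on a log axis, with group medians as lines. In Control, Aire (442 to 784 CPM against 4.06 to 207) and Nfkbia (1969 to 2730 against 1200 to 1476) do not overlap, and Gnat3 does.

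Genes that mark the mature AIRE stage did not all stand on the MHCII-high side. Of 17 listed and tested, 10 had a positive log2 fold change, the median was 0.54, and 4 were higher without overlap: Aire, Icosl, Cd80 and Tnfrsf11a. With 1 library left out the median ran from 0.15 (without MHCII-high replicate 5) to 0.78. The list turned with the library sets described further on, with a median of -0.24 in the early set and 0.87 in the late set. Fezf2, the regulator of a set of self-antigens that does not depend on AIRE, stood at 626, 702, 334 and 354 CPM in MHCII-high and 115, 373, 55 and 22.4 CPM in MHCII-low (log2 fold change 1.83, SE 1.31), with only MHCII-low replicate 3 inside the MHCII-high range. Cd80, the costimulatory ligand of CD28, stood at 21.1, 81.9, 33.4 and 83 CPM in MHCII-high and 20.9, 12.4, 16.5 and 4.17 CPM in MHCII-low (2.02, SE 1.22). The gap between the nearest Cd80 libraries was thus very small. Ccl22, a chemokine of mature mTEC, showed no such order, at 198, 126, 1047 and 1326 CPM in MHCII-high and 208, 1151, 25.6 and 0.261 CPM in MHCII-low (0.96, SE 1.42). Ctss, the protease cathepsin S, also overlapped, at 356 to 962 CPM against 226 to 785 CPM (0.34, SE 0.86).

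The MHC class II genes describe the sort itself and are no finding. Of 14 presentation genes 11 were positive, with a median of 0.70 (0.57 to 0.90 with 1 library left out), and 3 were higher without overlap. H2-Ab1, a class II beta chain, stood at 8539, 6899, 8985 and 8849 CPM in MHCII-high and 4806, 7611, 7082 and 4744 CPM in MHCII-low (0.46, SE 0.41). Cd74, the invariant chain that guards the class II groove, stood at 9279 to 11181 CPM against 4369 to 9600 CPM (0.60, SE 0.37). Both differed by less than 1 log2 unit and overlapped, Cd74 through MHCII-low replicate 3 and H2-Ab1 through replicates 3 and 4. The 3 members without overlap were Ciita, the master regulator of class II transcription, Rfx5, a subunit of the RFX factor that binds class II promoters, and H2-Eb2. Ciita stood at 140, 113, 92.9 and 90.8 CPM in MHCII-high and 27.3, 31.9, 31.6 and 54 CPM in MHCII-low (1.59, SE 0.53). H2-Eb2, whose promoter is shown above, stood at 165, 170, 133 and 97.6 CPM in MHCII-high and 37.3, 36.2, 3.82 and 3.39 CPM in MHCII-low (2.81, SE 0.90). Both were set apart from the highest MHCII-low library by a clear gap.

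MHC class I loading genes differed less. Of 16, 14 were positive with a median of 0.29, and 0 were without overlap. B2m, the light chain of class I, stood at 5999, 4065, 6661 and 5688 CPM in MHCII-high and 5428, 6103, 4617 and 4300 CPM in MHCII-low (0.13, SE 0.26). The cathepsin proteases went either way, with 5 of 13 positive and a median of -0.44. Ctsz stood at 710, 986, 1429 and 1255 CPM in MHCII-high and 222, 1136, 372 and 365 CPM in MHCII-low (1.06, SE 0.60), with MHCII-low replicate 3 alone inside the MHCII-high range.

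Among costimulatory and checkpoint ligands, 10 of 16 were positive (median 0.68, 0.42 to 1.16 with 1 library left out), 3 were higher without overlap and 1 was lower. Icosl, the ligand of ICOS on T cells, stood at 121, 109, 137 and 322 CPM in MHCII-high and 54, 43.2, 25.6 and 20.9 CPM in MHCII-low (2.26, SE 0.99). Tnfsf9, the 4-1BB ligand, stood at 169, 39.4, 53.4 and 65.6 CPM against 16.5, 28.7, 33.2 and 15.9 CPM (1.79, SE 1.30). Cd40, the receptor for CD40 ligand, was at 400, 358, 653 and 538 CPM against 53.8, 387, 128 and 14.9 CPM (1.74, SE 0.80), and overlapped through MHCII-low replicate 3. Lgals9, which encodes galectin-9, went the other way, at 179, 269, 397 and 411 CPM in MHCII-high and 862, 526, 947 and 485 CPM in MHCII-low (-1.17, SE 0.40). All 4 MHCII-low libraries lay above all 4 MHCII-high libraries for this gene.

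Genes of RANK, CD40, lymphotoxin beta receptor and NF-kappaB signalling, the route to the AIRE stage, were mostly higher in MHCII-high. Of 25, 20 were positive and 8 of these had an unadjusted edgeR p under 0.05, with a median of 0.54 (0.38 to 0.88 with 1 library left out), 5 were higher without overlap and 0 lower. Summed over the list, MHCII-high libraries held 5778, 7074, 7523 and 7866 CPM and MHCII-low libraries 3289, 5282, 3493 and 3551 CPM, without overlap. That separation rests on the marker Nfkbia, a list member at 1969 to 2730 CPM in MHCII-high and 1200 to 1476 CPM in MHCII-low. Without Nfkbia the sums overlap, since MHCII-low replicate 3 then lies above MHCII-high replicate 1. The 5 genes were Tnfrsf11a, the receptor RANK, the inhibitors Nfkbia and Nfkbie, and Birc2 and Birc3, ubiquitin ligases of the receptor complexes. Birc2 stood at 498, 479, 464 and 666 CPM in MHCII-high and 121, 164, 198 and 115 CPM in MHCII-low (1.82, SE 0.50). Nfkbie, the IkappaB-epsilon gene, stood at 198, 233, 173 and 191 CPM against 86.7, 115, 47.3 and 45.1 CPM (1.44, SE 0.48). For both, the lowest MHCII-high library lay well above the highest MHCII-low library. Tnfrsf11a was at 153, 333, 199 and 191 CPM against 60.7, 86.8, 86.3 and 99.9 CPM (1.39, SE 0.78). Birc3 was at 308, 559, 361 and 403 CPM against 201, 257, 134 and 180 CPM (1.08, SE 0.42). Relb, the partner of the p52 subunit in the non-canonical pathway, was at 231, 617, 401 and 618 CPM against 52.8, 495, 54.7 and 75.1 CPM (1.46, SE 0.66), with MHCII-low replicate 3 again apart from the other MHCII-low libraries.

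**Figure D2:**
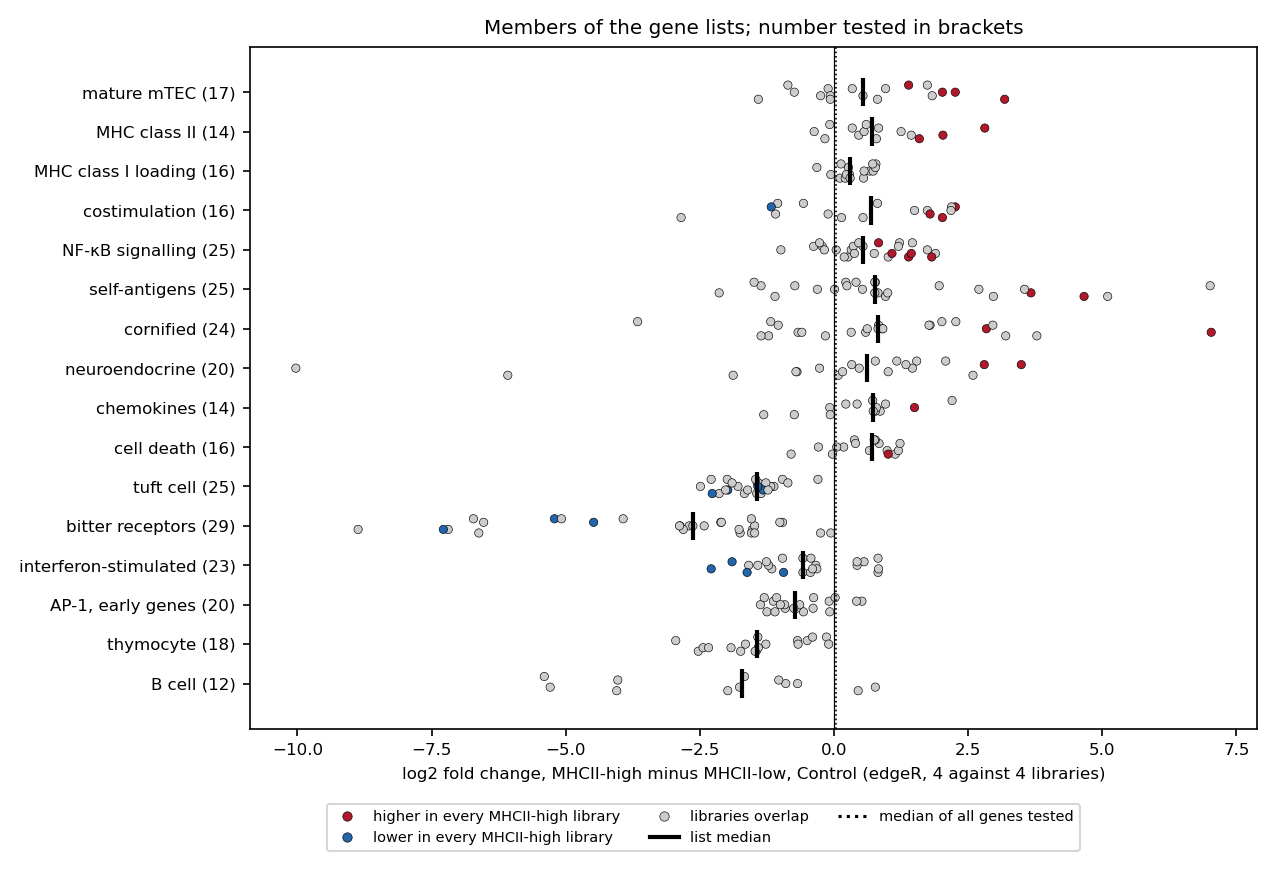
Log2 fold change (MHCII-high minus MHCII-low, Control) of each tested member of 16 gene lists, coloured by whether the 8 libraries overlap, with list medians as bars and the median of all genes (0.04) dotted. The NF-kappaB list lies mostly above 0 (20 of 25 members), and the tuft cell list (0 of 25) and bitter receptors (0 of 29) lie wholly below it.

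Partners of AIRE showed no common direction: 10 of 22 were positive, with a median of -0.05. Sirt1, a deacetylase that acts on AIRE, was 1 of 2 members higher without overlap, at 186, 253, 233 and 175 CPM in MHCII-high and 49.9, 50.9, 28 and 28.4 CPM in MHCII-low (2.43, SE 1.08). Dnmt3l, a regulator of DNA methylation, was the other, at 35.3, 122, 32.6 and 55.8 CPM against 3.68, 21.2, 2.15 and 0 CPM (3.17, SE 1.98). The Dnmt3l and Aire genes overlap on opposite strands of chromosome 10 (78041947 to 78063622 and 78030022 to 78043610 in GRCm38), and the library chemistry does not mark strand, so reads in the overlap cannot be told apart.

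Organ-specific self-antigens were mostly higher in MHCII-high. Of 25 tested, 19 were positive with a median of 0.76, which ran from 0.46 (without MHCII-low replicate 1) to 1.65 (without MHCII-low replicate 3). At an unadjusted edgeR p under 0.05 there were 1 higher and 0 lower. Gad1, the glutamate decarboxylase of neurons and a diabetes-related antigen, stood at 33.1, 21.6, 65 and 143 CPM in MHCII-high and 20.6, 0, 0 and 0 CPM in MHCII-low (3.67, SE 1.92). Mucl2, the salivary protein also known as Spt1 and an AIRE target used in the field, stood at 125, 72.9, 15.7 and 18.3 CPM against 6.88, 0.452, 0.717 and 1.04 CPM (4.66, SE 2.33). These were the 2 self-antigens without overlap. Csn2, a milk casein, overlapped, at 1882, 1938, 1095 and 457 CPM against 238, 1893, 64.1 and 982 CPM (0.76, SE 1.56), with MHCII-low replicate 3 as high as the MHCII-high libraries.

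All 25 tuft cell genes tested had a negative log2 fold change, though none had an unadjusted edgeR p under 0.05. The median was -1.44, and 4 were lower without overlap: Trpm5, Hpgds, Tas1r3 and L1cam. The list median ran from -2.36 (without MHCII-high replicate 4) to -1.08 (without MHCII-high replicate 3). Summed over the list, MHCII-high libraries held 531, 782, 6457 and 4479 CPM and MHCII-low libraries 11006, 3317, 12585 and 10309 CPM, which overlap, since MHCII-high replicates 4 and 5 lie above MHCII-low replicate 3. Trpm5, the cation channel that opens downstream of taste receptors, stood at 4.65, 19.1, 256 and 201 CPM in MHCII-high and 577, 293, 524 and 510 CPM in MHCII-low (-1.98, SE 1.80). Hpgds, a prostaglandin D synthase, stood at 71.2, 28.8, 179 and 141 CPM against 327, 231, 302 and 189 CPM (-1.32, SE 0.81). The MHCII-high libraries fell into a low pair (replicates 1 and 3) and a higher pair (replicates 4 and 5) for these genes. Rgs13, a regulator of G protein signalling, showed the same pairs most clearly, at 5.75, 11.7, 851 and 287 CPM against 1016, 64.4, 1878 and 1365 CPM (-1.90, SE 1.83), and overlapped.

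Bitter taste receptors (Tas2r), the ligand sensors of such chemosensory cells, were also all lower. Of 29 tested, 0 were positive, the median was -2.63 and 3 were lower without overlap. Tas2r118 stood at 0, 0, 4.05 and 8.2 CPM in MHCII-high and 127, 36.8, 62.2 and 50.4 CPM in MHCII-low (-4.48, SE 2.76). Tas2r120 had counts in 1 of 4 MHCII-high libraries, at 1.37 CPM, and stood at 13.5, 11.3, 19.4 and 11 CPM in MHCII-low. Tas2r124 had no count in any MHCII-high library and 0.261 to 11.5 CPM in the 4 MHCII-low libraries. Set at a floor of 3 counts over the MHCII-high group, Tas2r124 was at least 23.5-fold higher in MHCII-low, and at least 8.45-fold without MHCII-low replicate 1. Tas2r105, at 0, 4.68, 169 and 32 CPM against 241, 204, 197 and 56.1 CPM, overlapped. Summed, the family held 5 to 547 CPM in MHCII-high and 435 to 1230 CPM in MHCII-low. The receptors lie in clusters of similar genes, so reads could be shared among them.

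Other peripheral-like programmes were less uniform. Cornified and keratinocyte-like genes had 16 of 24 positive and a median of 0.82, which ran from 0.25 (without MHCII-high replicate 4) to 1.10 (without MHCII-low replicate 5). Their sums overlapped, at 632, 1407, 2570 and 506 CPM in MHCII-high and 716, 799, 406 and 1823 CPM in MHCII-low. Ivl, the cornified envelope protein involucrin, stood at 0.548, 7.6, 26.3 and 10.7 CPM in MHCII-high and 0.246, 0, 0 and 0 CPM in MHCII-low (7.03, SE 2.87). The nearest Ivl libraries, at 0.548 and 0.246 CPM, held almost no counts of the gene. Krt77, a keratin of differentiated epidermis, stood at 27.9, 54.6, 7.84 and 13.3 CPM against 4.67, 0.452, 1.43 and 7.83 CPM (2.84, SE 2.56), and its nearest libraries almost touched. Neuroendocrine and ciliated genes had 14 of 20 positive (median 0.62), but at an unadjusted edgeR p under 0.05 there were 1 higher and 2 lower. Insm1, a transcription factor of endocrine cells, was higher without overlap at 57.5, 35.3, 87.5 and 65.8 CPM against 16.7, 13.3, 2.63 and 2.61 CPM (2.80, SE 1.10). Calca, which encodes calcitonin, was at 280, 191, 80.5 and 141 CPM against 3.93, 105, 5.5 and 0 CPM (2.59, SE 1.78), with 1 MHCII-low library inside the MHCII-high range. Enterocyte and hepatocyte-like genes (8 of 23 positive, median -0.37) and microfold-like genes (3 of 11, median -0.33) showed no common direction, and both medians turned positive without MHCII-low replicate 3, at 0.41 and 0.04. Cdx1, an intestinal homeobox factor, was the exception without overlap, at 372, 581, 220 and 333 CPM against 51.8, 161, 60.2 and 130 CPM (1.90, SE 1.25). Muscle-like genes had 12 of 16 positive, a median of 0.98 and 0 without overlap.

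Markers of the immature and cortical stages did not separate the gates. The immature, CCL21-stage and basal list had 6 of 14 positive with a median of -0.14, which turned to 0.65 without MHCII-low replicate 1. Ly6a, which encodes SCA-1, was its only member without overlap, lower at 355, 248, 449 and 379 CPM in MHCII-high and 1257, 1262, 1053 and 804 CPM in MHCII-low (-1.61, SE 0.55). Krt17, a basal keratin, was higher on average in MHCII-high at 931 to 2358 CPM against 363 to 1078 CPM, and overlapped. Ccl21a, the chemokine of immature mTEC, held almost no counts and was not tested. It stood at 0 CPM in all 4 MHCII-high libraries and at 1.23, 0, 0.717 and 0 CPM in MHCII-low, but reads shared with its near-identical gene copies may not have been counted, so these values do not show that the transcript was absent. Of the cortical list 10 of 15 were positive (median 0.90, 0.24 without MHCII-high replicate 3), with 0 outside the overlap. Psmb11, the thymoproteasome subunit of the cortex, was low throughout, at 2.02 to 51.1 CPM against 1.2 to 14.2 CPM. Foxn1, the master factor of thymic epithelium, was at 93.1, 132, 2.78 and 37.9 CPM against 27, 22.6, 0 and 3.13 CPM (2.33, SE 1.68). Ski itself was at 8.21, 23, 11.1 and 11.1 CPM in MHCII-high and 25.1, 44.5, 21.3 and 7.83 CPM in MHCII-low (-0.88, SE 1.31), and overlapped.

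Interferon-stimulated genes were mostly lower in MHCII-high. Of 23, 6 were positive, the median was -0.58 (-0.71 to -0.41 with 1 library left out), 4 were lower without overlap and 0 higher. Irf7, the interferon regulatory factor that amplifies type I interferon responses, stood at 58.3, 95.9, 161 and 247 CPM in MHCII-high and 472, 700, 501 and 430 CPM in MHCII-low (-1.90, SE 0.53, unadjusted p = 0.00101). Isg15, the ubiquitin-like modifier whose promoter is shown above, stood at 55, 74.5, 104 and 54.3 CPM against 128, 199, 118 and 106 CPM (-0.94, SE 0.51). The Irf7 libraries were far apart and the Isg15 libraries nearly met. Rtp4 was at 70.6, 48.5, 48.6 and 66 CPM against 387, 150, 307 and 303 CPM (-2.29, SE 0.77), and Ifi44 at 25.2 to 56.6 CPM against 61.8 to 243 CPM (-1.62, SE 0.58). Not every member followed: Usp18, which removes ISG15, was at 430, 709, 317 and 510 CPM against 425, 251, 482 and 301 CPM (0.43, SE 0.39).

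In the TGF-beta and SKI list, 8 of 20 were positive (median -0.15), and the receptors Tgfbr2 and Tgfbr3 were lower without overlap. Tgfbr2, the type II receptor, stood at 4.11, 5.65, 2.02 and 11.1 CPM in MHCII-high and 15.7, 114, 28.9 and 20.6 CPM in MHCII-low (-2.96, SE 1.23). Tgfbr3, the betaglycan coreceptor, was at 0.78 to 6.32 CPM against 7.17 to 31.2 CPM (-2.12, SE 1.35). Immediate early genes, which also respond to tissue dissociation, had 3 of 20 positive, a median of -0.73 and 0 without overlap. Among them Fos was at 1760, 348, 1479 and 1607 CPM against 2190, 616, 2527 and 2356 CPM, with replicate 3 low in both gates. Cell death genes had 13 of 16 positive (median 0.71), and Cflar, an inhibitor of caspase-8, was higher without overlap at 213, 176, 363 and 233 CPM against 125, 127, 74.6 and 161 CPM (1.01, SE 0.48). Chemokines had 10 of 14 positive (median 0.73), with Cx3cl1 alone without overlap, at 16.4 to 32.4 CPM against 1.57 to 16.2 CPM. Cell cycle genes had 16 of 24 positive and a median of 0.24, which fell below 0 (-0.25) without MHCII-high replicate 1.

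**Figure D3:**
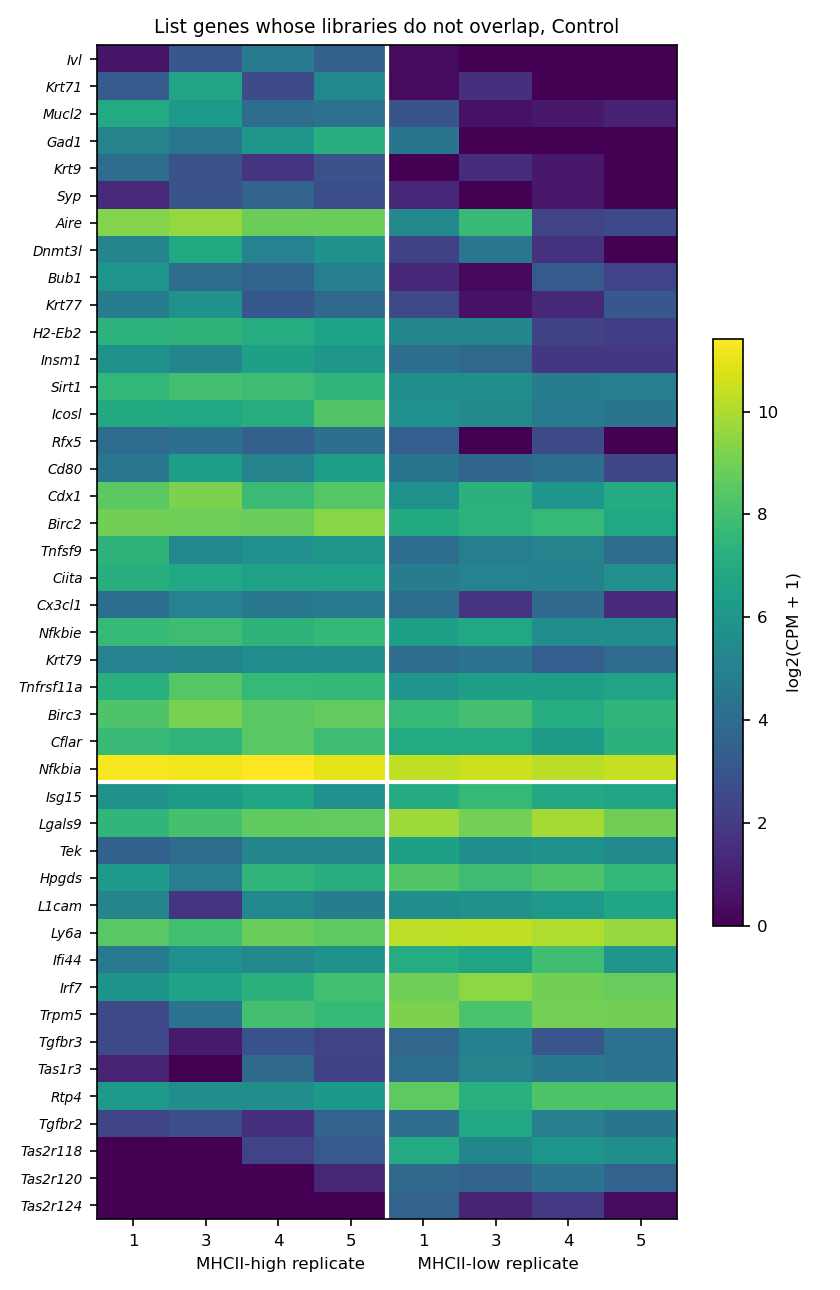
Level, as log2(CPM + 1) on a colour scale, of the 43 genes from the lists and the keratin, claudin and Tas2r families whose 8 Control libraries do not overlap between the gates, 27 higher (top) and 16 lower (bottom) in MHCII-high. Of all 23040 genes tested, 591 (2.57%) were higher and 318 (1.38%) lower in this way. MHCII-low replicate 3 comes nearest to the MHCII-high libraries for Aire (207 CPM) and Nfkbia (1476 CPM).

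By p-value over all genes, those with the smallest p and a median of at least 10 CPM were Klk1b9, Cep85, Sgpp1, Slc25a38 and Nsmce2 on the higher side. Cep85, a centrosomal protein, stood at 603, 428, 381 and 456 CPM in MHCII-high and 74.2, 279, 113 and 68.9 CPM in MHCII-low (1.80, SE 0.44, unadjusted p = 0.000221). Slc25a38, a mitochondrial glycine carrier, stood at 138, 157, 138 and 123 CPM against 48.9, 29.4, 51.6 and 27.1 CPM (1.82, SE 0.47). Sgpp1, a sphingosine-1-phosphate phosphatase, was at 241 to 876 CPM against 98.5 to 160 CPM (1.99, SE 0.50). None of these genes overlapped between the gates. Klk1b9, 1 of a cluster of near-identical kallikreins among which reads could be split, was at 45.7, 4.68, 36.2 and 159 CPM against 0.246, 0, 0.239 and 0 CPM. On the lower side they were Irf7, Ctla2a, Rab11b, Tcrg-C4 and Tln1. Tln1, the integrin adaptor talin, stood at 51.7, 36.8, 52.9 and 55 CPM against 77.4, 225, 74.6 and 196 CPM (-1.55, SE 0.48). Rab11b, a small GTPase of recycling endosomes, overlapped slightly at 61.6 to 113 CPM against 109 to 173 CPM (-0.76, SE 0.23). Tcrg-C4, a T cell receptor gamma constant segment, had no count in MHCII-high and stood at 1.72, 0, 68.6 and 48.8 CPM in MHCII-low.

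limma voom and DESeq2 shared 18 calls, 15 higher and 3 lower, which are 22.8% of the limma calls and 8.96% of the DESeq2 calls. These limma voom calls come from the fit over 40 libraries. On the 8 compared libraries alone limma voom called 0 of 13986 genes tested (1359 at an unadjusted p under 0.05, smallest adjusted p 0.171). Many of the calls were genes absent from 1 gate: 119 of the 201 DESeq2 calls had no count in MHCII-low and 55 had none in MHCII-high. Mpo, the granule enzyme myeloperoxidase, is a shared call and stood at 20.8, 105, 62.2 and 47.6 CPM in MHCII-high and at 0 in MHCII-low (limma voom adjusted p = 2.51e-06, DESeq2 adjusted p = 2e-20, and 0.235 with limma voom on the 8 libraries alone). With a floor of 3 counts over the MHCII-low group it was at least 325-fold higher, and at least 240-fold without MHCII-high replicate 3. Upk1a, a uroplakin of bladder lining, stood at 18.1, 115, 47.6 and 32.6 CPM against 0, 0, 0.717 and 0 CPM (limma voom adjusted p = 0.000178, DESeq2 adjusted p = 0.044, and 0.253 with limma voom on the 8 libraries). Both are genes of other tissues that were present in all 4 MHCII-high libraries. Others were present in only some of them, such as Cyp26a1, a retinoic acid hydroxylase, at 186, 68.8, 105 and 0 CPM, Gkn2, a stomach protein, at 6.85, 90.2, 152 and 0 CPM, and Lefty2, a signalling ligand of the embryo, at 54.8, 67.4, 0 and 3.32 CPM, all at 0 in MHCII-low. On the lower side Fer1l6 stood at 0, 0, 0.506 and 0 CPM against 59.7, 22.4, 13.1 and 10.7 CPM (limma voom adjusted p = 0.000806, DESeq2 adjusted p = 0.0335, and 0.251 with limma voom on the 8 libraries). Clec4a1, a lectin of myeloid cells, had no count in MHCII-high and 16.7, 8.82, 3.82 and 4.7 CPM in MHCII-low. These genes were named after their values were seen. The edgeR log2 fold changes of Mpo, Upk1a and Fer1l6 were 11.17, 8.02 and -7.49 in Control. In KO they were 1.45, 1.86 and -2.38, and the gates overlapped for each. In Ski flox Control they were 10.80, 11.09 and 2.35. A count of 0 covers counting error only, since the reads carry no molecular identifiers.

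The breadth of expression did not separate the gates. MHCII-high libraries detected 20251, 18134, 19040 and 19946 genes with at least 1 count and MHCII-low libraries 21447, 16175, 20089 and 17337. The means were 19343 ± 956 and 18762 ± 2429 (SD, n = 4 each), so MHCII-high was 581 genes higher on average (exact permutation p = 0.686, two-sided). After thinning to 3000000 counts the difference was 556 (exact permutation p = 0.686). The mean difference turned to -282 without MHCII-low replicate 3 (exact permutation p = 0.857). At 10 CPM or more, 7203 genes were found in all 4 MHCII-high libraries and 6685 in all 4 MHCII-low libraries, and 2725 and 2690 were found in exactly 1. Spearman correlations between libraries ran from 0.75 to 0.84 within MHCII-high, 0.72 to 0.84 within MHCII-low and 0.67 to 0.84 between them, so libraries of 1 gate were hardly more alike than libraries of both.

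Markers of other cells that a gate could hold were present and uneven. The thymocyte markers, 0 of 18 positive with a median of -1.44, summed to 582, 240, 1250 and 1588 CPM in MHCII-high and 211, 442, 2697 and 4277 CPM in MHCII-low. Their median was 0.80 in the early set (replicates 1 and 3) and -1.84 in the late set (replicates 4 and 5). B cell markers (2 of 12 positive, median -1.71) summed to 177 to 486 CPM in MHCII-high and to 188, 418, 11614 and 2450 CPM in MHCII-low, where Ighm reached 5758 CPM in replicate 4. Myeloid markers (5 of 18 positive, median -0.50) summed to 1089 to 2254 CPM in MHCII-high and to 1409, 5557, 1301 and 591 CPM in MHCII-low. Their median was 0.04 without MHCII-low replicate 3. That library also held 1221 CPM of endothelial markers, beside 65 to 154 CPM in the other 7, and Esam at 308 CPM. Lyz2, a myeloid marker, was at 818 to 1421 CPM in MHCII-high and 84.3 to 1806 CPM in MHCII-low. Fibroblast markers had 5 of 12 positive (median -1.19, -0.10 without MHCII-low replicate 4) and summed to 226 to 598 CPM against 211 to 733 CPM, and erythroid markers summed to 6 to 107 CPM against 0 to 16 CPM. Of the sort markers, Ptprc (CD45) was at 32.4 to 362 CPM against 89.4 to 643 CPM, Epcam at 643 to 949 CPM against 692 to 1434 CPM, and Enpep (Ly51) at 6.64 to 45 CPM against 0 to 17 CPM. Mitochondrial genes took 0.741 to 2.09% of counts in MHCII-high and 1.68 to 3.43% in MHCII-low. The part of these cells in the lower genes, Tcrg-C4, Clec4a1, Tgfbr2 and the interferon-stimulated genes among them, and of any in Mpo, was not tested.

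**Figure D4:**
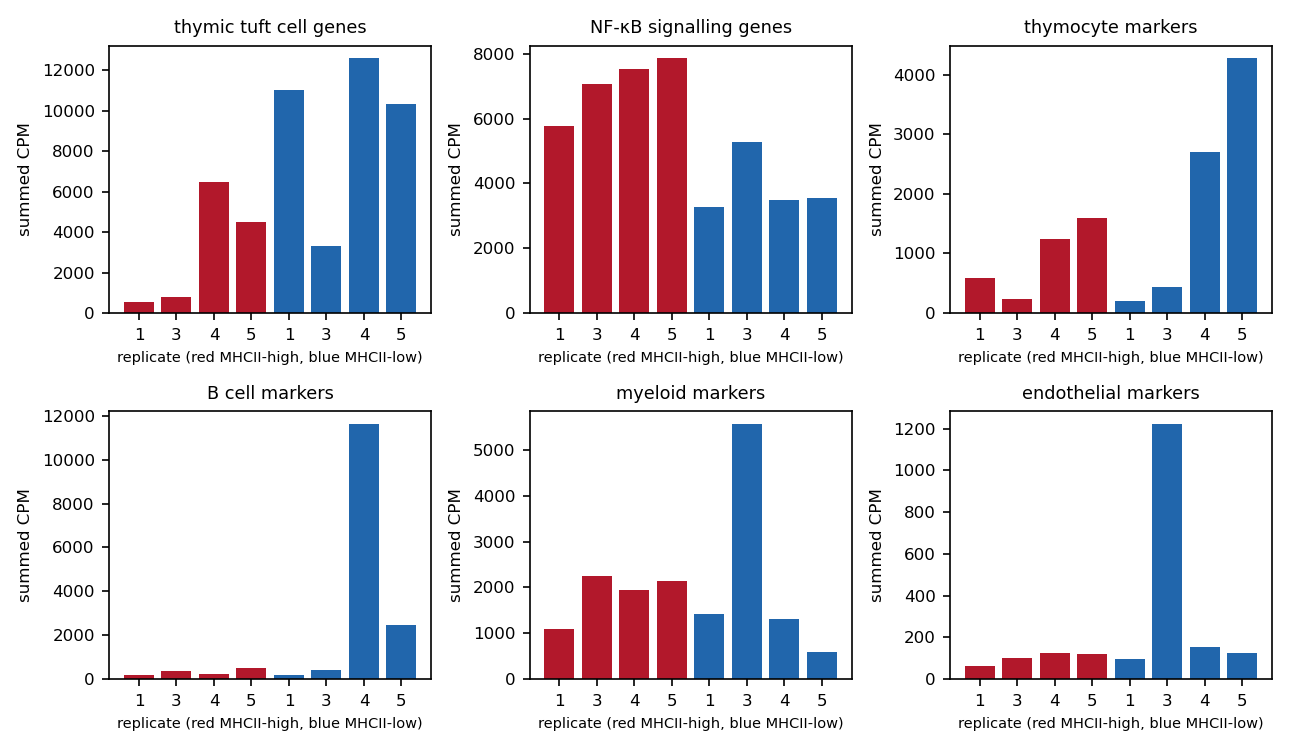
Summed CPM of 6 gene lists in each Control library (bars, replicates 1, 3, 4 and 5 of MHCII-high in red and MHCII-low in blue). The sum of NF-kappaB signalling genes is higher in every MHCII-high library, a separation that rests on Nfkbia. MHCII-low replicate 3 stands apart in tuft cell genes (3317 CPM), myeloid markers (5557 CPM) and endothelial markers (1221 CPM).

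Library numbers split the 8 into an early set (replicates 1 and 3) and a late set (replicates 4 and 5), a boundary taken from earlier work on these data that no label names. Within the late set alone, 2 against 2 for this contrast, edgeR called 113 genes, 104 higher (0.514% of 20216 tested) and 9 lower (0.0445%). That fit also held the late cortical, KO and Ski flox Control libraries, so its spread is not that of the compared libraries alone. In the early set, fitted likewise with its cortical and KO libraries, edgeR called 0 of 20066 (0%), with 232 at an unadjusted p under 0.05. Aire was among the late calls (log2 fold change 6.65, adjusted p = 0.00162 in edgeR), as were H2-Eb2 (4.96, adjusted p = 0.00498), Cep85 (2.17, adjusted p = 0.00332) and Insm1 (4.83, adjusted p = 0.00332). Icosl, Birc2, Ccl22, Ctsz and Nsmce2 also passed, with edgeR adjusted p of 0.039, 0.0464, 0.0223, 0.0281 and 0.0388. Rtp4 was among the 9 lower calls (-2.44, edgeR adjusted p = 0.0152). Of the 104 higher calls 71 (68.3%) were positive in the early libraries, beside 50.3% of all genes tested there, and of the 9 lower calls 6 (66.7%) were negative, beside 46.9%. Ccl22 was not one of these, at -2.05 in the early set. MHCII-low replicate 3 belongs to the early set. With that library left out of the fit edgeR still called 0 genes, and the smallest adjusted p was 0.0598. For tuft cell genes the list median was -3.68 early and -0.91 late, and for NF-kappaB signalling 0.13 early and 0.92 late. The sign turned between early and late for mature mTEC markers and thymocyte markers, as given above, and also for MHC class I loading (-0.23 and 0.67), cell cycle (1.36 and -0.63), myeloid markers (-2.12 and 0.56), enterocyte and hepatocyte-like genes (-0.46 and 0.21), TGF-beta and SKI (-0.31 and 0.12) and AIRE partners (0.01 and -0.15). Whether the sets differ by batch or by animals cannot be told apart.

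The contrast was next read in libraries that share no sample with Control. Ski counts did not separate the genotypes: Ski stood at 0 to 16.9 CPM in MHCII-high and 0.523 to 16.9 CPM in MHCII-low libraries labelled KO, ranges that overlap Control. In the 7 MHCII-high libraries labelled KO, Aire ran from 279 through a median of 544 to 1411 CPM, and in the 7 MHCII-low libraries from 5.06 through 28.7 to 510 CPM (log2 fold change 2.33, SE 1.05, edgeR adjusted p = 0.226). Nfkbia ran from 2239 through 2515 to 3030 CPM and from 763 through 1471 to 2347 CPM (0.80, SE 0.23, edgeR adjusted p = 0.163). The gates overlapped here because 2 MHCII-low libraries for Aire and 1 for Nfkbia lay above the lowest MHCII-high library. Gnat3 ran from 0 through 128 to 441 CPM in MHCII-high and from 0 through 288 to 1295 CPM in MHCII-low (-2.04, SE 1.30). edgeR called 4 of 23040 genes between the KO gates (0.0174%): Lgals9 (-1.73, adjusted p = 0.0144) and Anxa6 (-1.87, adjusted p = 0.00214) lower, Epyc (10.20, adjusted p = 0.00214) and Nsmce1 (1.40, adjusted p = 0.0174) higher in MHCII-high. In Control the same 4 genes had the same sign, at -1.17, -1.06, 3.92 and 1.12. Lgals9 alone of the 4 was without overlap in both genotypes.

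**Figure D5:**
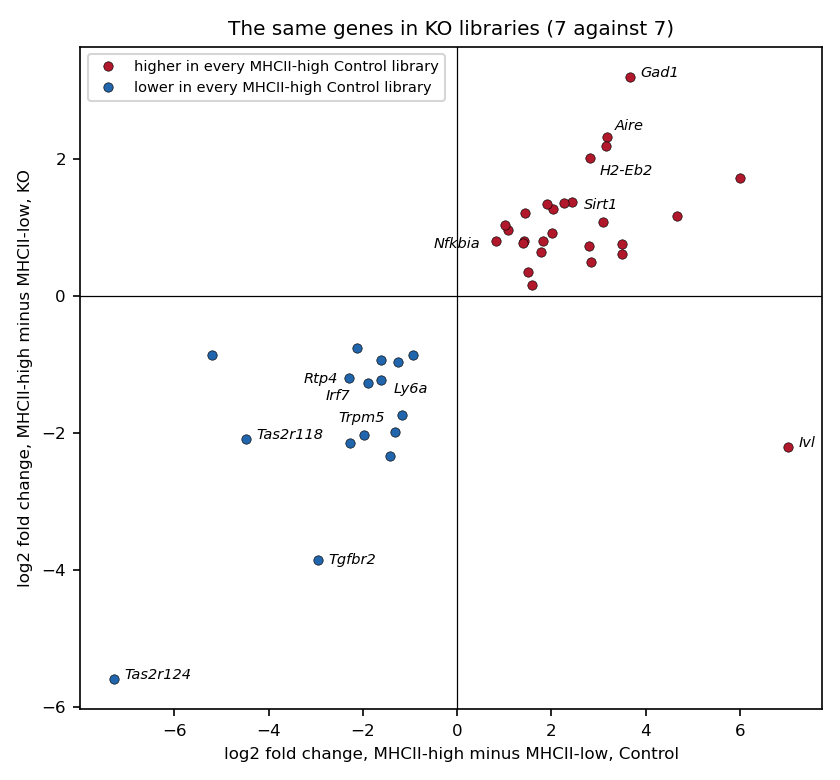
Log2 fold change between the gates in Control (x axis) and in libraries labelled KO (y axis) for the 43 list and family genes without overlap in Control, 27 higher (red) and 16 lower (blue). In KO, 26 of the 27 are positive and 16 of the 16 negative, beside 49.4% and 49.1% of all genes tested. Ivl is the exception (-2.20).

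Of all 591 genes higher without overlap in Control, 496 (83.9%) were positive in KO, where 49.4% of all genes tested were positive, and their median log2 fold change there was 0.93. Of the 318 lower genes 276 (86.8%) were negative in KO, where 49.1% of all genes were, with a median of -0.81. Without overlap in both genotypes were 6 of the higher and 3 of the lower genes, in KO counts of 39 higher (0.169%) and 19 lower (0.0825%). The KO median was 0.36 for NF-kappaB signalling, 1.12 for self-antigens, -2.34 for tuft cell genes with 0 of 25 positive, -1.63 for bitter receptors and -0.69 for interferon-stimulated genes. These have the sign of Control, while neuroendocrine genes (KO median -0.64) and cell cycle genes (-0.50) do not. The sign also turned for enterocyte and hepatocyte-like genes (KO median 0.09) and cortical genes (-0.01). It turned as well for claudins (-0.86 in Control, 0.36 in KO) and for the SMC5/6 complex described further on (-0.10 and 0.26). The 2 Ski flox Control libraries per gate gave 0 edgeR calls (0%), with 947 genes at an unadjusted p under 0.05, and 469 limma voom and 601 DESeq2 calls. There Aire stood at 391 and 344 CPM against 31.8 and 27.2 CPM, and Nfkbia at 2366 and 2693 CPM against 1600 and 1837 CPM. Gnat3 went the other way, at 803 and 350 CPM in MHCII-high and 126 and 46 CPM in MHCII-low. Of the 591 higher genes 464 (78.5%) were positive there, beside 54% of all genes, and of the 318 lower genes 154 (48.4%) were negative, beside 37.5%. A test of the difference in the contrast between Control and KO called 0 of 23040 genes in edgeR (0%; smallest adjusted p 0.571; 1421 at an unadjusted p under 0.05), 0 in limma voom and 139 in DESeq2. In the late set alone edgeR called 2, Mmp25, a membrane-bound metalloproteinase (difference 9.87, SE 1.06, adjusted p = 0.00162), and Anxa3, an annexin (2.68, SE 0.36, adjusted p = 0.0097), both named after their values were seen. In Control Mmp25 stood at 0, 17.3, 61.2 and 31 CPM in MHCII-high against 0, 0.226, 0 and 0 CPM, and Anxa3 at 50.7, 71.5, 677 and 801 CPM against 84.8, 359, 91.6 and 63.9 CPM, so both overlapped over all 8 libraries. For Aire that difference was 0.84 (SE 1.66), for Nfkbia 0.03 (SE 0.38) and for Gnat3 0.37 (SE 2.07).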

How the data were processed

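RNA of 200 sorted cells per library was turned into full-length cDNA with SMART-Seq v4, amplified by PCR and made into Nextera XT libraries, per the labels' protocols. The deposited table holds whole-number raw counts per Ensembl gene. Tools named in the submitters' processing notes are SAMtools 1.2, FastQC 0.11.3, HTSeq 0.4.1 and Picard 1.134, with the build GRCm38. The aligner, annotation and strand setting were not given in the sources used here. Of 53465 gene identifiers, 53360 matched GENCODE M21.

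The 40 libraries with at least 100000 counts (3217251 to 7068077) entered 1 model of 9 groups in R 4.3.3 (edgeR 4.0.16, glmQLFit and glmQLFTest, TMM, filterByExpr with a minimum count of 10 and total of 15). It tested 23040 of 37695 genes with any count, with a biological coefficient of variation of 1.40 and Benjamini-Hochberg adjustment, and was tested on simulated data. DESeq2 1.42.0 (3327 genes without an adjusted p) and limma 3.58.1 were alternatives. Exact permutation tests used SciPy 1.17.1. The members, the gene lists and all rules were chosen with earlier results of these data known. By rule the text names the 3 marker genes, Ski, Fezf2, Cd80, Psmb11, Foxn1 and Ccl21a, the genes past the threshold or else the 5 of smallest p per direction, and the passing or else the 2 most abundant members of each list. It gives part of them, and list or called genes beyond the rule were named after their values were seen. Floors of 3 counts are over a group.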

Additional observations from a re-analysis of the deposited data

Results flagged for a closer look

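In groups of 4 libraries, values were checked for 1 library far from the other 3 on log2(CPM + 1), a check that flags about 1 in 20 groups by chance. MHCII-low replicate 3 stood apart for 8 values. Gnat3 there was 145 CPM, beside 1689 to 2560 in the other 3, and the summed tuft cell genes 3317 CPM beside 10309 to 12585. Relb was 495 CPM beside 52.8 to 75.1, the summed NF-kappaB signalling genes 5282 CPM beside 3289 to 3551, and the summed enterocyte and hepatocyte-like genes 10221 CPM beside 3060 to 3211. Anxa6 was 257 CPM beside 332 to 335. Fos was low there (616 CPM beside 2190 to 2527), and in MHCII-high replicate 3 as well (348 CPM beside 1479 to 1760). That MHCII-high library also stood low in H2-Aa (5082 CPM beside 6184 to 6285), the summed MHC class II presentation genes (26424 CPM beside 31983 to 33263), L1cam (2.34 CPM beside 26.9 to 39.7) and Tln1 (36.8 CPM beside 51.7 to 55).

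MHCII-high replicate 1 stood low in Gp2 (78.3 CPM beside 433 to 592) and in the summed cathepsins (2563 CPM beside 4673 to 4899). MHCII-low replicate 5 stood low in Tas2r105 (56.1 CPM beside 197 to 241). The rest were genes with a count in only 1 library of a gate: Gad1 (20.6 CPM) and Ivl (0.246 CPM) in MHCII-low replicate 1, Mmp25 (0.226 CPM) in MHCII-low replicate 3, Upk1a (0.717 CPM) in MHCII-low replicate 4, Fer1l6 (0.506 CPM) in MHCII-high replicate 4 and Tas2r120 (1.37 CPM) in MHCII-high replicate 5. Their causes were not tested.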

How the results depend on the processing

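No paired analysis was made because replicate numbers were given in accession order and no label ties libraries of the 2 gates to 1 animal. Consecutive library numbers do run through the 3 sorted subsets (cortical, MHCII-low, MHCII-high) of 1 genotype in turn. Whether libraries of the same replicate number share an animal is not known. The count of 0 genes held with RLE factors, either count filter, the 8 libraries alone, all 42 libraries, pooled controls, 3 covariates and each library left out, and became 201 with DESeq2, 79 with limma voom, 113 in the late set alone and, added after seeing the data, 138 with DESeq2 on the 8 libraries alone, where limma voom called 0 (smallest adjusted p 0.171). The count of 0 for the difference from KO became 139 with DESeq2 and, added after seeing the data, 2 in the late set alone. Between the gates in KO, where edgeR called 4, DESeq2 called 552 and limma voom 635. For Aire and Nfkbia the difference was 2.93 and 0.78 in the early set and 6.40 and 0.86 in the late set (exact permutation p = 0.333 each, the smallest 2 against 2 allows), and 3.95 to 5.74 and 0.75 to 0.91 with 1 library left out (exact permutation p = 0.0571, the smallest 4 against 3 allows). Genes without overlap numbered 754 to 1240 higher and 464 to 1105 lower with 1 library left out, most without MHCII-low replicate 3, where fewer libraries make the rule easier to meet. The difference in detected genes ran from -282 to 1476.

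Of 96 named genes, 13 changed sign somewhere. In the early set alone B2m was -0.19, Anxa3 -1.86, Ccl22 -2.05, Ccl5 -1.74, Ctss -0.40, Lyz2 -0.16 and Ighm 0.33. In the late set alone Ctsb was 0.28, Epyc -0.08, Id2 0.33, Psmb11 -0.88 and Reg3g 0.21. With 1 library left out Ctsb ran from -0.70 to 0.24 and Reg3g from -1.12 to 0.05 (both positive without MHCII-low replicate 3), and Id2 from -0.60 to 0.09 (positive without MHCII-high replicate 1, and at 0.02 without replicate 3). With pooled controls Anxa3 was -0.03, Ccl5 was -0.52 and Ctss -0.56, and with all 42 libraries Isg15 was 0.11. The cause was not tested. Small cell numbers and 4 libraries per gate limit what these counts can show.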

Other observations

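Genes of the SMC5/6 complex, which acts in DNA repair and chromosome maintenance, stood together among the small p-values on the MHCII-high side, a group noticed after the values were seen. Nsmce2, its SUMO ligase, was at 286, 279, 207 and 192 CPM in MHCII-high and 105, 145, 57.6 and 81.7 CPM in MHCII-low (log2 fold change 1.31, SE 0.34). Nsmce3 was at 92.5, 204, 94.9 and 134 CPM against 57.5, 70.5, 42.3 and 48.8 CPM (1.26, SE 0.37), and Nsmce1 at 474, 597, 644 and 289 CPM against 208, 362, 185 and 166 CPM (1.12, SE 0.33). The first pair did not overlap between the gates and Nsmce1 overlapped in 1 library of each. The complex as a whole did not move one way, with 3 of 8 listed genes positive and a median of -0.10. In KO the log2 fold changes were 0.30, 0.73 and 1.40.

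Hdc, the enzyme that makes histamine, was higher without overlap at 842, 1936, 469 and 459 CPM in MHCII-high and 37.6, 429, 6.93 and 19 CPM in MHCII-low (2.91, SE 1.44). Fgf21, a liver-derived hormone, was likewise at 997, 656, 922 and 389 CPM against 117, 190, 33 and 36.3 CPM (2.98, SE 1.42), and its log2 fold change in KO was 3.16. Neither passed edgeR's adjusted threshold (adjusted p = 0.661 for both).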
